A study of Saccharomyces cerevisiae with 3 samples.

Results

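Transcripts of 10 genes of inositol and phosphatidylcholine synthesis were followed in stationary-phase budding yeast (Saccharomyces cerevisiae). The genes were INO1, INM1, ITR1, ITR2, CHO1, CHO2, OPI3, OPI1, INO2 and INO4, chosen by name, and all 10 were found, each with 1 probe set, among 5498 tested probe sets for 5449 genes. The comparison was between 2 arrays labelled as RPA12 deletion cells (RPA12Δ) and 1 array labelled wild type. RPA12 codes for one of the small subunits of RNA polymerase I, which makes the large ribosomal RNA precursor. Both groups are labelled as the haploid laboratory strain BY4741, mating type a, with the alleles his3Δ 1, leu2Δ 0, met15Δ 0 and ura3Δ 0, and as untreated cells in synthetic medium at 30 °C. The growth note of the wild-type array also names cells lacking RPA12, and its genotype and description, which read wild type, were followed. Nothing in the labels says whether the RPA12Δ-labelled arrays came from separate cultures.

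Inositol is made from glucose 6-phosphate by inositol-3-phosphate synthase, encoded by INO1, followed by a monophosphatase, and it can also be taken up from the medium. Phosphatidylcholine is made in yeast by stepwise methylation of phosphatidylethanolamine, itself derived from phosphatidylserine, or from imported choline. Many genes of both routes carry a promoter element bound by the Ino2-Ino4 heterodimer. When inositol is scarce, the repressor Opi1 is held at the endoplasmic reticulum by phosphatidic acid and the membrane protein Scs2, and the genes are active. When inositol is plentiful, phosphatidic acid is consumed, and Opi1 enters the nucleus and represses them.

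The values are log2 probe-set summaries made with RMA, and a difference is the mean of the RPA12Δ-labelled arrays minus the wild-type array. The verbs rose and fell are kept for a limma adjusted p under 0.05 together with a difference of at least 2-fold. The value under which 95% of the probe sets for another yeast species lay served as the background level. It was 1.42 on each RPA12Δ-labelled array and 1.84 in the wild type. The labels were not borne out for RPA12, which read 5.74 and 5.79 on the RPA12Δ-labelled arrays, against 3.60 in the wild type. It was thus 4.48-fold higher on the arrays labelled as lacking it. Where its probes lie in the gene is not known here. Every direction given here follows the genotype labels and would reverse if they were exchanged. Whether the labels are right was not tested. Of 5 genes specific to α cells 4 rose, and their mean log2 value was 6.53 and 6.46 on the RPA12Δ-labelled arrays and 2.47 in the wild type, where MF(ALPHA)1 and HMLALPHA1 were not above background. Of 7 genes specific to a cells 2 rose and 2 fell, and their median difference was 0.13, with 4 higher and 3 lower. Their mean log2 values were 4.82 and 4.83 on the RPA12Δ-labelled arrays and 5.66 in the wild type. These means include HMRA1, which was not above background on the RPA12Δ-labelled arrays, at 1.25 and 1.09, and read 7.41 in the wild type. Its difference of -6.24 was the lowest of these genes. The strain genes also set the groups apart. MET17, the gene also called MET15 that the labels describe as deleted in both groups, read 9.43 and 9.36 on the RPA12Δ-labelled arrays and was not above background in the wild type, at 1.56. HIS3 read 9.27 and 9.30 on the RPA12Δ-labelled arrays and 6.73 in the wild type. LYS2 was not above background on the RPA12Δ-labelled arrays and read 6.08 in the wild type, LEU2 read 1.75 on both RPA12Δ-labelled arrays and 1.91 in the wild type, and URA3 was not above background on any array. The 36 poly-A spike-in probe sets differed by a median of -3.81. The median was -1.48 for 27 hybridization control probe sets and -1.25 for 24 ribosomal RNA probe sets. The part of these differences in the results on phospholipid genes was not tested, and array processing, strain and genotype cannot be told apart.

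The deposited values are coarse, which bears on every p-value. On the 2 RPA12Δ-labelled arrays the 5498 tested probe sets took 2250 and 2229 distinct values, and in the wild type 4384. The RPA12Δ-labelled arrays were equal to every deposited digit for 44.2% of tested probe sets, INO1, ITR2, CHO1 and INO2 among them. INO1's value on the first of these arrays was shared by 38 tested probe sets, counting itself. For such a gene the fit has no measured spread, so its p-value carries little information and the size of the difference is what can be read. By limma adjusted p alone 80.2% of all tested probe sets, and 9 of the 10 genes, would be called.

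Of the 10 genes 3 rose and none fell: INM1, INO4 and INO1. Across all tested probe sets 23.8% rose and 10.2% fell, so a share of 3 in 10 is near the share among all genes. The median difference over the 10 genes was 0.14, beside 0.19 over all tested probe sets. INM1 stood far out, and the other changes were moderate. In RNA from whole cultures, a change in every cell and a change in the share of cells that express a gene cannot be told apart. The 2 inositol transporter genes, the 3 genes of phosphatidylserine synthesis and phosphatidylethanolamine methylation, the repressor gene OPI1 and the activator gene INO2 all lay within 2-fold of the wild-type array.

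**Figure D1:**
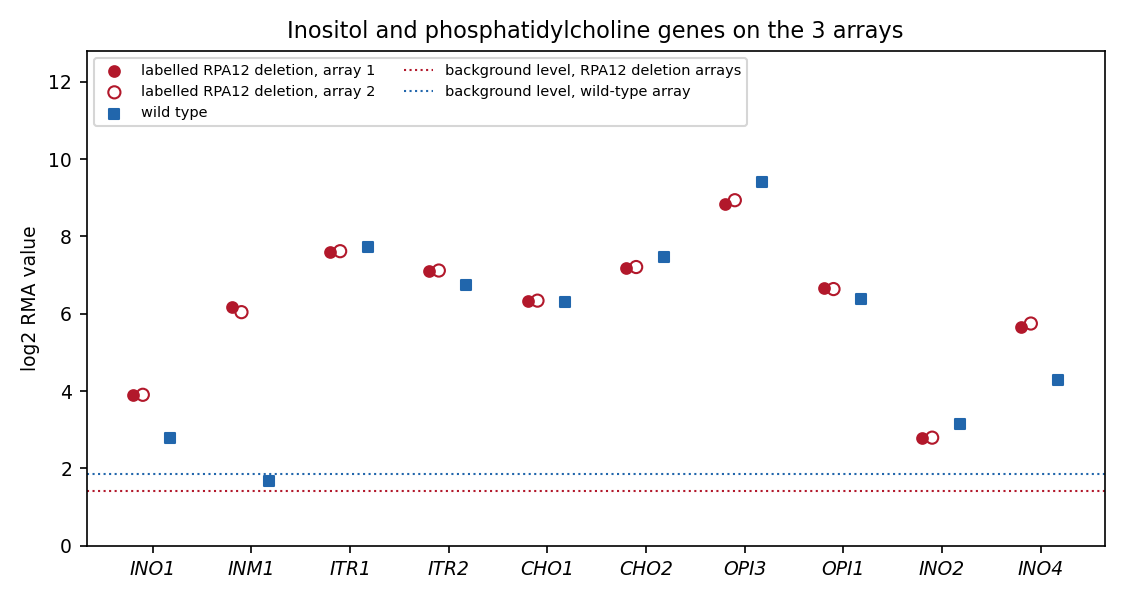
Log2 RMA values (vertical axis) of the 10 genes on each array, with the 2 RPA12Δ-labelled arrays as red circles to the left of the wild-type array as blue squares, and dotted lines at the background levels of 1.42 and 1.84. INM1 lies above both lines on the RPA12Δ-labelled arrays, at 6.17 and 6.04, and under the line in the wild type, at 1.66.

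Inositol synthesis held both the strongest change and a weak one. INM1 (YHR046C), which encodes an inositol monophosphatase that releases free inositol from inositol phosphate, read 6.17 and 6.04 on the RPA12Δ-labelled arrays and 1.66 in the wild type. The wild-type value is not above background, so the level there is only bounded. With the wild type raised to the background level INM1 rose 19.2-fold, and 13.5-fold with that level set at the 99th percentile. The measured difference was 4.44 (limma adjusted p = 0.0096), with a 95% interval of 3.70 to 5.19. That interval covers only the spread between the 2 RPA12Δ-labelled arrays and assumes that the lone wild-type array varies alike. INO1 (YJL153C), the synthase gene and best-known target of the regulon, read 3.90 on both RPA12Δ-labelled arrays and 2.79 in the wild type. That is a difference of 1.11, or 2.16-fold (limma adjusted p = 9.15e-05, from equal values), and 1205th highest of the 5498. INO1 lay above background on all 3 arrays. Its call depends on the scaling: the difference was 0.32 after quantile normalization again and 0.86 after median centring, each under 2-fold.

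INM1 has a sister gene, INM2, which encodes the other inositol monophosphatase and went the other way. INM2 read 5.42 on both RPA12Δ-labelled arrays and 6.51 in the wild type, and fell by 1.09 on the log2 scale (limma adjusted p = 9.15e-05, from equal values). With INM1 in the wild type raised to the background level, its difference exceeded that of INM2 by at least 5.42 on the first RPA12Δ-labelled array and at least 5.29 on the second. These margins are smaller with the background set at the 99th percentile, where the bound on INM1's difference is 3.76 rather than 4.26. The pairing of INM1 and INM2 was chosen after their values were seen.

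Inositol uptake showed no 2-fold difference. ITR1 (YDR497C), the major inositol transporter gene, read 7.61 and 7.62 on the RPA12Δ-labelled arrays and 7.72 in the wild type, a difference of -0.11 with a 95% interval of -0.16 to -0.06. ITR2 (YOL103W), its minor paralog, read 7.12 on both RPA12Δ-labelled arrays and 6.74 in the wild type, a difference of 0.38. Both transporter genes were well above background on every array. The difference of ITR2 exceeded that of ITR1 by 0.49, and by 0.46 after quantile normalization again, so the paralogs lay a little to opposite sides of the wild type. After median centring ITR2 still differed by 0.13 and ITR1 by -0.36.

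The 3 genes of the methylation route lay close to the wild-type array. CHO1 (YER026C), phosphatidylserine synthase, read 6.34 on both RPA12Δ-labelled arrays and 6.31 in the wild type. Its difference of 0.02 became -0.10 after quantile normalization again and -0.23 after median centring, so it has no settled direction. CHO2 (YGR157W), which adds the first methyl group to phosphatidylethanolamine, read 7.19 and 7.21 on the RPA12Δ-labelled arrays and 7.47 in the wild type. The difference was -0.27, with a 95% interval of -0.38 to -0.16. OPI3 (YJR073C), which adds the remaining methyl groups, read 8.83 and 8.93 on the RPA12Δ-labelled arrays and 9.41 in the wild type. Its difference of -0.52 was the lowest of the 10 genes with the values as deposited (INO2 is lower after quantile normalization again) and did not pass the limma threshold (adjusted p = 0.0683), with a 95% interval of -1.10 to 0.06. Both methyltransferase genes were lower on both RPA12Δ-labelled arrays, and remained lower under both other scalings, by less than 2-fold. The difference of OPI3 minus that of CHO2 was -0.30 on the first RPA12Δ-labelled array and -0.21 on the second.

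Of the 3 regulator genes INO4 rose, and INO2 and OPI1 did not pass. INO4 (YOL108C), one partner of the activating heterodimer, read 5.65 and 5.75 on the RPA12Δ-labelled arrays and 4.28 in the wild type, so that both lay above the wild type. It rose 2.66-fold, a difference of 1.41 with a 95% interval of 0.84 to 1.98 (limma adjusted p = 0.0232). The difference was 1.00 after quantile normalization again, at the 2-fold limit, and in a limma test against a 1.5-fold change INO4 did not pass (adjusted p = 0.0527). INO2 (YDR123C), the other partner, read 2.79 on both RPA12Δ-labelled arrays and 3.15 in the wild type. Its difference of -0.36 became -1.06 after quantile normalization again, which passes the call, so whether INO2 fell by 2-fold depends on the scaling. The difference of INO4 exceeded that of INO2 by 1.72 on the first RPA12Δ-labelled array, by 1.82 on the second, and by 2.07 after quantile normalization again. OPI1 (YHL020C), the repressor gene, read 6.66 and 6.64 on the RPA12Δ-labelled arrays and 6.39 in the wild type. Its difference was 0.26, with a 95% interval of 0.12 to 0.40, and 0.01 after median centring.

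**Figure D2:**
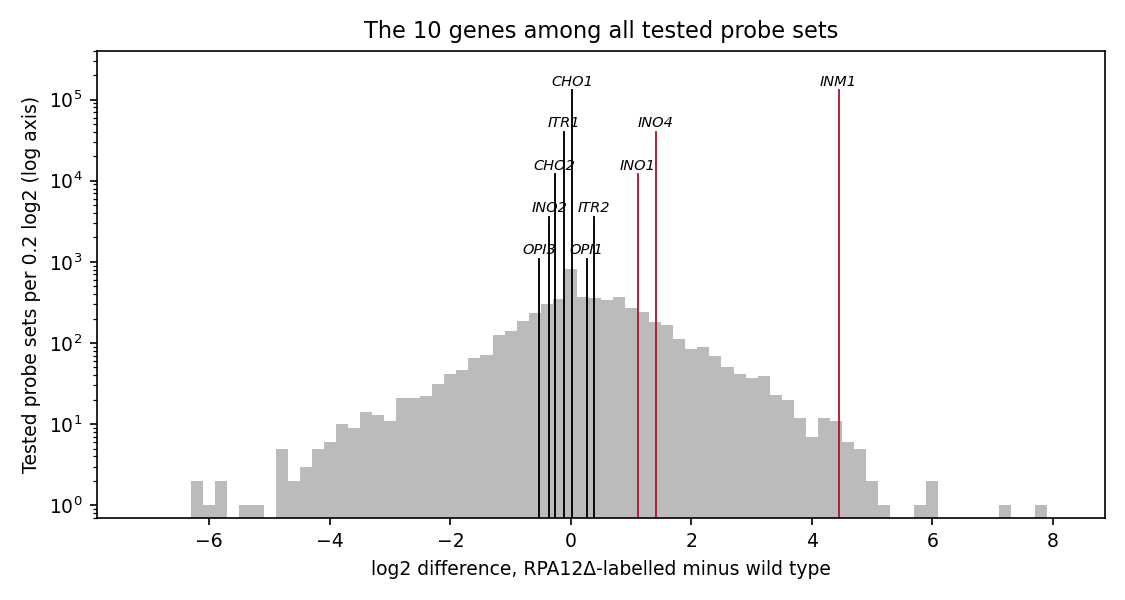
Log2 differences, RPA12Δ-labelled minus wild type (horizontal axis), of all 5498 tested probe sets as grey bars (number per 0.2 log2, log axis), with the 10 genes as vertical lines, red where the gene rose. INM1 at 4.44 lies in the upper tail, INO4 at 1.41 and INO1 at 1.11 on the upper shoulder, and the other 7 genes between -0.52 and 0.38.

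Placed among all genes, most of the regulon lay in the bulk of the distribution, as the plot of all differences shows. The lower bound on INM1's difference, 4.26 with the wild type raised to the background level, exceeded 99.4% of tested probe sets. With that level at the 99th percentile the bound was 3.76. The difference of INO4 exceeded 84.3% of them and that of INO1 78.0%. At the other end, 19.4% of tested probe sets lay lower than OPI3, 23.7% lower than INO2 and 26.4% lower than CHO2. The median of all tested probe sets moves by -0.15 under quantile normalization again and by -0.25 under median centring. Relative to that shift INM1 and INO4 kept their call under both scalings. The median of the 10 genes, 0.14, became 0.03 and -0.11 under these scalings, so the direction of the group as a whole is not settled.

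**Figure D3:**
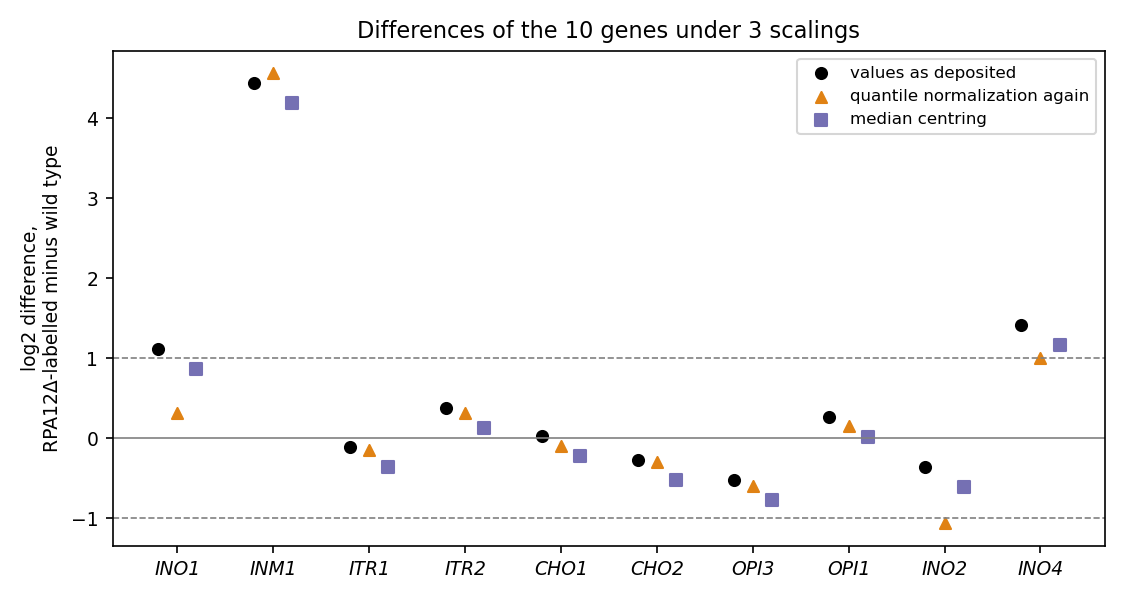
Log2 differences, RPA12Δ-labelled minus wild type (vertical axis), of the 10 genes with the values as deposited (circles), after quantile normalization again (triangles) and after median centring (squares), with dashed lines at 2-fold. INM1 lies between 4.19 and 4.56 under all 3, INO1 between 0.32 and 1.11, and INO2 between -1.06 and -0.36. CHO1 changes sign.

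The rest of phospholipid metabolism was read from 6 lists with 60 genes, of which 10 rose and 8 fell, against 23.8% risen and 10.2% fallen among all tested probe sets. All 60 were above background on every array, and their median difference was -0.01. With the background set at the 99th percentile, 2.34 in the wild type, EKI1 and GIT1 were not above it there, at 2.18 each. Among all tested probe sets 1008 rose and 773 fell after quantile normalization again, and 1032 rose and 813 fell after median centring. In the 6 lists, 7 of the 10 rises and all 8 falls were also made under both other scalings. The exceptions were CRD1 and SCS22, under 2-fold in each, and IPK1, under 2-fold after quantile normalization again. In the limma test against a 1.5-fold change EKI1, PLB3, UME6, HAC1 and ELO1 did not pass. Another 7 genes, which neither rose nor fell with the values as deposited, did pass. Of these SPO7, ALE1 and DDP1 were higher, and FAB1, IRE1, REG1 and ACS2 lower. FAB1, IRE1 and REG1 also fell under both other scalings, and ACS2 after median centring. The 5 genes lost had unequal values on the RPA12Δ-labelled arrays, and those gained, except ACS2, had equal values. Passing this test therefore depends on equal values as well as on size: EKI1 differed 5.59-fold and ALE1 1.52-fold.

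De novo synthesis outside the 10 genes gave 3 rises and 2 falls among 17 genes, with a median of 0.03, and 2 rises and 3 falls with a negative median under each of the other scalings. PIS1, which joins inositol to CDP-diacylglycerol to make phosphatidylinositol, read 8.24 and 8.29 on the RPA12Δ-labelled arrays and 6.64 in the wild type, and rose 3.09-fold (limma adjusted p = 0.0110). The transcripts of DGK1 and PAH1, whose enzymes set phosphatidic acid against diacylglycerol, went opposite ways. DGK1, the kinase that makes phosphatidic acid from diacylglycerol, read 7.16 and 7.21 on the RPA12Δ-labelled arrays and 5.12 in the wild type, and rose 4.19-fold (limma adjusted p = 0.0069). PAH1, the phosphatase that runs the reverse step, read 4.81 and 4.87 on the RPA12Δ-labelled arrays and 6.74 in the wild type, and fell 3.73-fold (limma adjusted p = 0.0099). The difference of DGK1 exceeded that of PAH1 by 3.97 and 3.96 on the RPA12Δ-labelled arrays. This pair was also chosen after its values were seen. CRD1, cardiolipin synthase, read 5.77 on both RPA12Δ-labelled arrays and 4.54 in the wild type, a rise of 2.34-fold, and CDS1, which makes CDP-diacylglycerol, differed by 0.21 and was not called.

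The route from choline and ethanolamine gave 1 rise and no fall among 7 genes (median 0.27, and 0.04 and 0.02 under the other scalings). EKI1, ethanolamine kinase, read 4.57 and 4.77 on the RPA12Δ-labelled arrays and 2.18 in the wild type, and rose 5.59-fold (limma adjusted p = 0.0264). CKI1, the related choline kinase gene, differed by -0.49, and by -1.02 after quantile normalization again, where it counts as a fall. The choline transporter gene HNM1 differed by 0.58 and EPT1, an aminoalcohol phosphotransferase gene, by 0.57, neither at 2-fold. Turnover genes gave 1 rise and 2 falls among 8, with a median of -0.35. GDE1, which breaks down glycerophosphocholine and releases choline, read 5.98 and 6.09 on the RPA12Δ-labelled arrays and 2.66 in the wild type. It rose 10.4-fold (limma adjusted p = 0.0098). The phospholipase B genes PLB2, at 2.42 on both RPA12Δ-labelled arrays and 4.98 in the wild type, and PLB3, at 4.41 and 4.64 on the RPA12Δ-labelled arrays and 6.43 in the wild type, both fell. The falls were 5.93-fold for PLB2 and 3.74-fold for PLB3 (limma adjusted p = 9.15e-05, from equal values, and 0.0409). The phospholipase D gene SPO14 differed by -0.56.

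**Figure D4:**
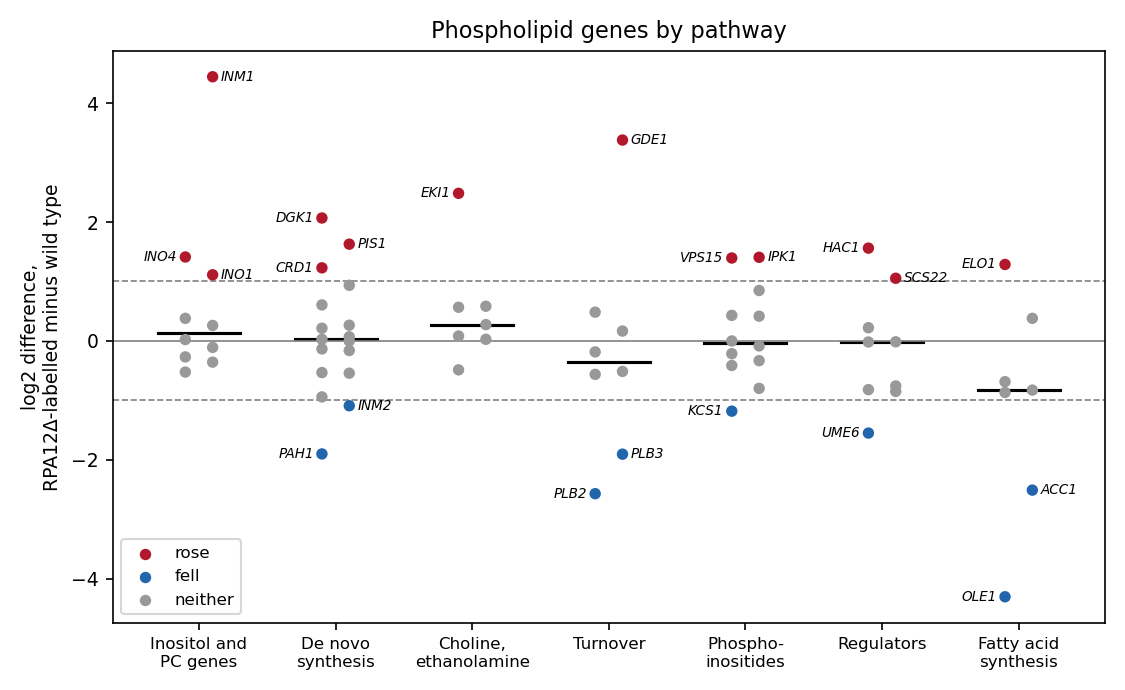
Log2 differences, RPA12Δ-labelled minus wild type (vertical axis), of the 10 inositol and phosphatidylcholine (PC) genes and of 60 other phospholipid genes in 6 lists, each point a gene, red where it rose, blue where it fell and grey where it did neither, with black bars at list medians and dashed lines at 2-fold. List medians run from -0.83 for fatty acid synthesis to 0.27 for the choline and ethanolamine route, whose medians are 0.04 and 0.02 under the other scalings.

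Phosphoinositide and inositol phosphate enzymes gave 2 rises and 1 fall among 12 genes, with a median of -0.04. There was 1 rise and there were 2 falls after quantile normalization again (median -0.21), and 2 of each after median centring (median -0.29). VPS15, the partner of the phosphatidylinositol 3-kinase Vps34, read 6.00 and 5.94 on the RPA12Δ-labelled arrays and 4.58 in the wild type, and rose 2.63-fold (limma adjusted p = 0.0152). IPK1, an inositol phosphate kinase, read 5.05 on both RPA12Δ-labelled arrays and 3.64 in the wild type, a rise of 2.65-fold. KCS1, which makes inositol pyrophosphates, read 5.21 on both RPA12Δ-labelled arrays and 6.39 in the wild type, and fell 2.27-fold. DDP1, which breaks such pyrophosphates down, differed by 0.85.

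Among 9 regulators around Opi1, Ino2 and Ino4, 2 rose and 1 fell, with a median of -0.02. The counts were 1 rise and 3 falls after quantile normalization again (median -0.06) and 1 rise and 4 falls after median centring (median -0.27). Over all 5498 tested probe sets the medians were 0.04 and -0.06 under these scalings, and 773 and 813 probe sets fell. HAC1, the transcription factor of the unfolded protein response, read 9.48 and 9.36 on the RPA12Δ-labelled arrays and 7.86 in the wild type, and rose 2.95-fold (limma adjusted p = 0.0253). IRE1, which splices the HAC1 transcript, differed by -0.85, and by -1.26 after quantile normalization again and -1.10 after median centring, both of which pass the call. UME6, a repressor of early meiotic genes that also acts on phospholipid genes, read 3.90 and 4.09 on the RPA12Δ-labelled arrays and 5.54 in the wild type, and fell 2.93-fold (limma adjusted p = 0.0396). SCS2, which helps to anchor Opi1, differed by -0.02, and its paralog SCS22 rose 2.08-fold.

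Fatty acid synthesis genes, among them known targets of Ino2 and Ino4 such as ACC1, FAS1 and FAS2, gave 1 rise and 2 falls among 7, and the lowest median of the 6 lists, -0.83. After median centring 4 fell, while 813 of all 5498 tested probe sets fell. OLE1, the fatty acid desaturase, read 5.61 and 5.68 on the RPA12Δ-labelled arrays and 9.95 in the wild type. ACC1, acetyl-CoA carboxylase, read 7.03 and 7.09 on the RPA12Δ-labelled arrays and 9.57 in the wild type. Both fell (limma adjusted p = 0.0055 for OLE1 and 0.0090 for ACC1). ELO1, a fatty acid elongase, rose 2.44-fold (limma adjusted p = 0.0366), and ACS2, acetyl-CoA synthetase, differed by -0.87.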

How the data were processed

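Each array was hybridised with biotinylated cRNA from 6 µg of total RNA, per the labels' protocols. The authors deposited log2 RMA values and named Affymetrix Expression Console, per the submitters' processing notes, with versions not given in the sources. RMA puts the probe intensities of a run on one distribution, and the deposited probe-set values of the 3 arrays still differ, with medians of 5.74, 5.74 and 5.49 over the tested probe sets. Of 10928 probe sets, 7244 had 1 gene symbol in the platform annotation, and 5498 of these belong to S. cerevisiae. The other 1746 belong to another yeast species. Names were updated for 12 probe sets through the RefSeq table of assembly R64.

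All 5498 were fitted with limma 3.58.1 in R 4.3.3 (lmFit, eBayes, two-sided, Benjamini-Hochberg), with 1 residual degree of freedom, and the procedure was tested on simulated data. The number of arrays limits the precision, and p-values measure only the spread between 2 arrays, which may be technical. The genes, the lists and the 2-fold condition were chosen with earlier results of these data known. Named were the 10 genes, up to 4 genes of each list with the largest differences, every listed gene that rose or fell, and genes that check the labels; others are named as chosen after their values were seen, or as background to these. Other scalings, tests, filters and array sets were tried as alternatives. Promoter and protein sequences were not analysed here.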

Additional observations from a re-analysis of the deposited data

How the results depend on the processing

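INM1 was called higher under every scaling and test that was run and was over 2-fold higher without either RPA12Δ-labelled array, with a measured difference between 4.19 and 4.56, and its bound was at least 13.5-fold with the background set at the 99th percentile. Of 20 differences of the 10 genes under the 2 other scalings, 15 kept direction and call. CHO1 turned to -0.10 after quantile normalization again and to -0.23 after median centring. The median of the 10 genes turned to -0.11 after median centring and was 0.025 after quantile normalization again, after which 1 of them fell. Falls in the 6 lists numbered 8 with the values as deposited, 13 after quantile normalization again and 15 after median centring. Among all tested probe sets the falls numbered 562, 773 and 813. The cause of the added falls was not tested. By adjusted p alone, which equal values inflate, 6 of the 10 genes were higher and 3 lower, 25 listed genes were higher and 29 lower, and 2773 probe sets were higher and 1634 lower of all tested, against 1310 and 562 with the 2-fold condition. Of the called probe sets 70.0% were higher, against 56.6% after quantile normalization again and 55.9% after median centring. Leaving out either RPA12Δ-labelled array left no residual degree of freedom, and by 2-fold alone 3 of the 10 genes were higher and none lower each time. Tested against a 1.5-fold change, 5 of the 18 listed calls were lost and 7 gained, giving 10 rises and 10 falls. The calls lost were of genes with unequal values on the RPA12Δ-labelled arrays, and those gained, except ACS2, of genes with equal values. Every gene had 1 probe set, so no other probe set could be tried. No paired analysis was possible with 1 wild-type array against 2 RPA12Δ-labelled arrays. The wild type has 1 array, and its own spread is unmeasured.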

Other observations

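The genes that flank the 10 on their chromosomes were read after the values of the 10 had been seen. Of 20 flanking genes 16 were measured, of which 3 rose and none fell, against 23.8% risen among all tested probe sets. AAP1, an aminopeptidase gene next to INM1, read 7.13 and 7.18 on the RPA12Δ-labelled arrays and 4.09 in the wild type, a difference of 3.06 (limma adjusted p = 0.0060). YOL107W, next to INO4, read 3.84 on both RPA12Δ-labelled arrays and 2.09 in the wild type, a difference of 1.75 (limma adjusted p = 9.15e-05, from equal values). Its wild-type value was under the 99th percentile background of 2.34. MTR3, an exosome subunit gene next to CHO2, read 5.05 and 5.18 on the RPA12Δ-labelled arrays and 2.50 in the wild type (limma adjusted p = 0.0161), while CHO2 itself differed by -0.27. VPS35 and SNA3, on either side of INO1, differed by -0.16 and 0.46.

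Probe sets for 4 genes of the other yeast species carry the same names as CHO1, CHO2, ITR1 and ITR2 in lower case, and they give a level without a transcript of that species in the sample. They read between 0.75 and 1.42 on the RPA12Δ-labelled arrays and between 1.04 and 1.86 in the wild type, where itr1 at 1.86 lay just over the background level of 1.84. The S. cerevisiae probe sets of those names read at least 6.31 on every array.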
